A study of Mus musculus with 16 samples.

Results

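RNA was compared between livers of male C57BL/6 mice with a hepatocyte-specific knockout of Mettl3 and livers of their flox/flox controls, 4 livers of each, out of 16 livers in the whole series. The members are all count columns whose names carry the METTL3 line and a knockout or wild-type label, which makes 8 livers, and all genes of the deposited table were examined. The other 8 livers come from a line carrying a hepatocyte-specific knockout of RPN11 (the gene Psmd14) and its own flox/flox controls, and they enter only where the knockout effects of the lines are compared. The mice were housed with a 12-hour light phase and fed freely. The sources used here do not give age, diet, hour of collection, the Cre driver, the deleted exons or whether any animals were littermates. The labels number the livers within each group without saying which animals they came from, so p-values measure the spread between these samples.

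METTL3 is the catalytic subunit of the nuclear enzyme complex that writes N6-methyladenosine (m6A), the most common internal modification of messenger RNA. METTL14 holds the RNA beside it, WTAP, VIRMA, RBM15 and ZC3H13 guide the complex to its transcripts, FTO and ALKBH5 remove the mark, and proteins of the YTH family bind it and influence the splicing, decay and translation of the marked RNA. The liver is made mostly of hepatocytes, which carry out lipid, glucose, amino acid, bile acid and drug metabolism and secrete most plasma proteins. The libraries were made from whole liver, so transcripts of macrophages, endothelium and stellate cells, which the labels do not describe as targeted, are counted together with those of hepatocytes.

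Libraries were ribosomal RNA-depleted, and 25062848 to 29029592 reads were counted on genes in the flox/flox livers and 15980959 to 27778135 in the knockouts, knockout 4 having the fewest. The knockout livers were not alike. On the first principal component of log2 CPM, which held 52.1% of the variance, the flox/flox livers lay between -57.3 and -43.3, knockout 1 at 10.9, knockouts 2 and 3 at 50.5 and 52.7, and knockout 4 at 99.6. A list of 42 brain genes summed to 948 CPM (counts per 1000000 reads of plain library total) in knockout 4, against 48.7 to 56.6 in the other knockouts and 41.4 to 58.1 in the flox/flox livers. Counts without knockout 4 are therefore given beside many of the gene groups. Where they are not given, a count may depend on that liver. Defining hepatocyte genes were abundant in every liver. Their 12 members summed to 146833 to 163205 CPM in flox/flox livers and to 160661, 128164, 111781 and 114607 CPM in knockouts 1 to 4. Knockouts 2 to 4 thus lay below every flox/flox liver. At an adjusted p under 0.05 in edgeR's quasi-likelihood test, 5 of the 12 were lower and 1 higher, with or without knockout 4. A smaller share of hepatocytes and less of these RNAs per hepatocyte cannot be told apart in whole liver.

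Mettl3 itself was lower in every knockout. It stood at 14.3, 18.2, 18.7 and 15.2 CPM in flox/flox livers 1 to 4 and at 6.85, 6.56, 6.72 and 7.02 CPM in knockout livers 1 to 4, on library sizes scaled by trimmed mean of M-values (TMM), the scale used for all levels below unless stated. No knockout reached any flox/flox liver, and the mean of the knockouts was 40.9% of the flox/flox mean. The log2 fold change was -1.29 (SE 0.17) with an adjusted p of 0.000647 by edgeR's quasi-likelihood test and Benjamini-Hochberg adjustment, and the exact two-sided permutation p on log2(CPM + 0.5) was 0.0286, the smallest that 4 against 4 can give. Without knockout 4 the log2 fold change was -1.31. With plain library totals in place of TMM it was smaller, at -0.87 (SE 0.21, adjusted p = 0.00945 by the same edgeR test). Reads of the whole gene are counted here, including exons that a floxed allele leaves in place and Mettl3 of cells other than hepatocytes.

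Across the transcriptome the groups differed widely in both directions. Of 12450 genes tested, 1893 were higher (15.2%) and 1906 lower (15.3%) at an adjusted p under 0.05 in edgeR's quasi-likelihood test. Of these, 1068 rose by more than 1 on the log2 scale and 668 fell by more than that. Without knockout 4, 1520 of 12572 genes were higher (12.1%) and 1538 lower (12.2%), and 2953 of the 3799 calls remained, all with the same sign. Knockout 1 was the knockout nearest to the flox/flox livers in 62.3% of the genes called lower and 63% of those called higher, and knockout 4 the farthest in 66.9% and 47.4%. The balance of the directions rests on the scaling. With plain library totals, 4077 genes were higher (32.7%) and 789 lower (6.34%), which is 83.8% of calls in the higher direction against 49.8% with TMM, and the median log2 fold change of all tested genes moved from 0.04 to 0.46. All fold changes below are therefore relative to the TMM scale, and counts with plain totals are given beside many of the gene groups. The groups did not overlap in 85.3% of called genes and in 31.6% of all tested genes, so a lack of overlap, which was also a condition for naming the largest rises and falls, describes a gene and adds no support.

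**Figure D1:**
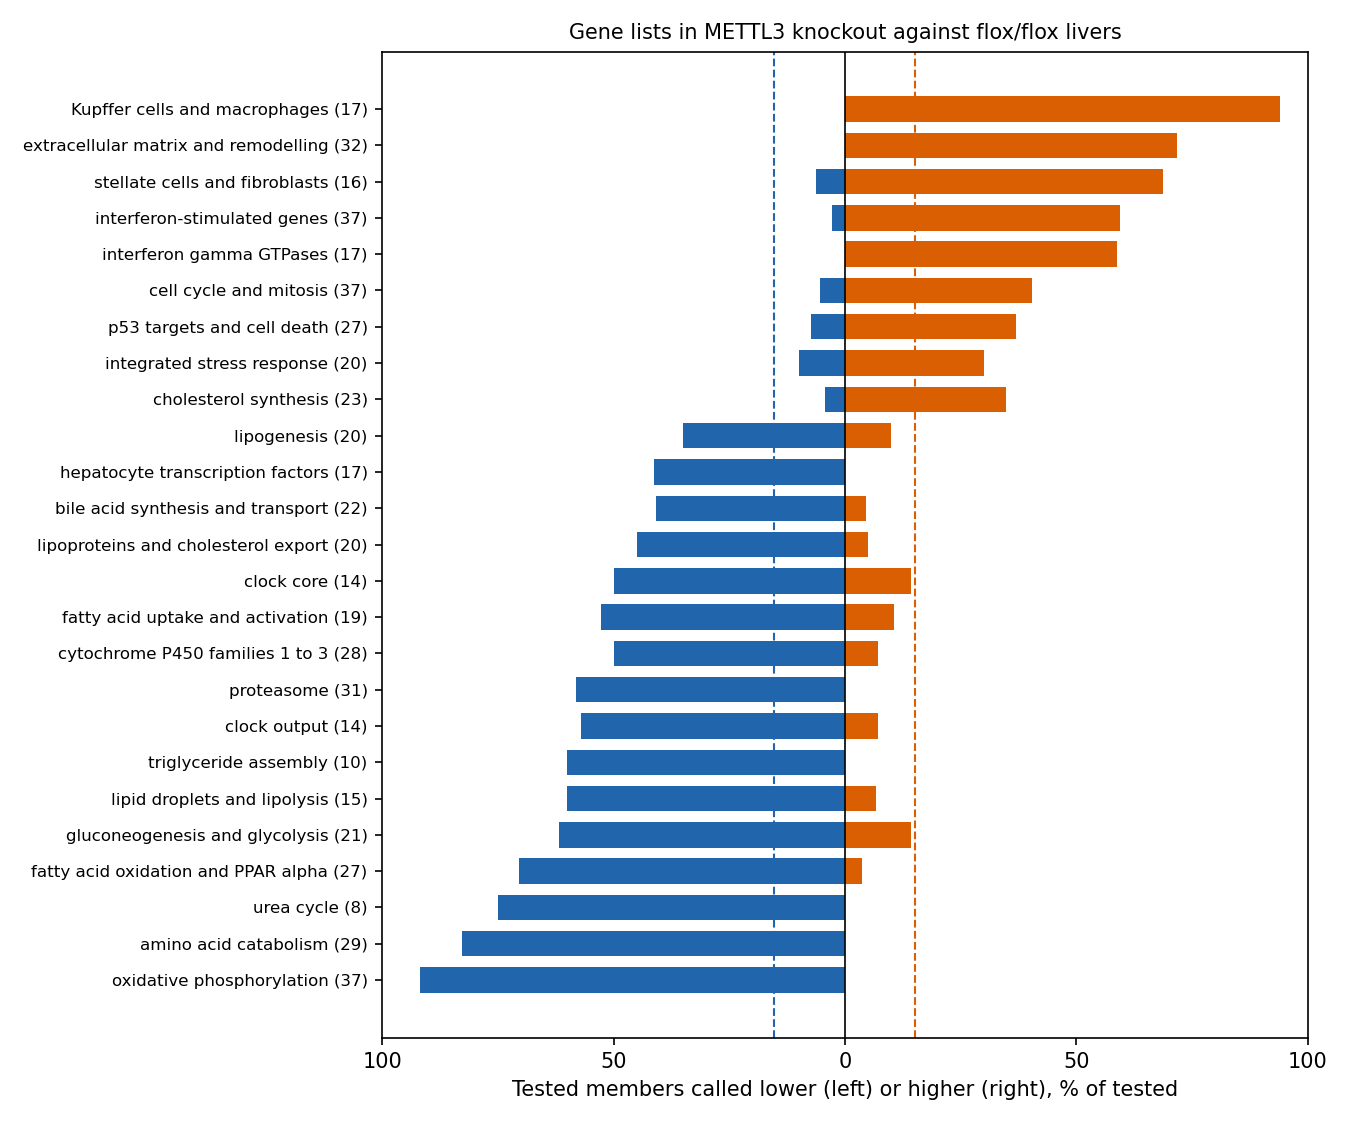
Share of the tested members of each gene list that were called higher (right, orange) or lower (left, blue) in the METTL3 knockout at an adjusted p under 0.05, with the number tested beside each name, and the share among all 12450 tested genes as dashed lines at 15.2% and 15.3%. Oxidative phosphorylation and amino acid catabolism lie far to the left, and macrophage markers and extracellular matrix far to the right.

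Among the rest of the m6A machinery, few genes were called. Of 12 writer genes tested, 2 were lower, Mettl3 and Mettl5, which methylates ribosomal RNA, and none was higher. Mettl5 was measured at 15, 16.9, 14.8 and 12 CPM in flox/flox livers 1 to 4 and 10.1, 8.82, 9.59 and 6.97 CPM in knockout livers 1 to 4 (log2 fold change -0.73, SE 0.19, adjusted p = 0.0148), and it did not pass with plain totals (adjusted p = 0.2). Mettl14, the partner of METTL3, stood at 10.9, 11.9, 9.22 and 8.87 CPM in flox/flox livers 1 to 4 and 8.25, 11.5, 12.5 and 14.2 CPM in knockout livers 1 to 4, and the ranges overlapped (log2 fold change 0.18, SE 0.21, adjusted p = 0.533). Neither eraser passed the threshold, with adjusted p of 0.161 for Fto and 0.984 for Alkbh5. Among 10 tested readers, 3 were higher and 1 lower, and without knockout 4 the counts were 2 and 0. The shares among all tested genes were 15.2% higher and 15.3% lower. Ythdf2, which brings marked transcripts to the deadenylation machinery, was measured at 36.8, 33.8, 36.8 and 33.8 CPM in flox/flox livers 1 to 4 and 42.1, 85.4, 85 and 72.5 CPM in knockout livers 1 to 4. Knockout 1 stood just above the flox/flox livers and the other knockouts well above them (log2 fold change 1.01, SE 0.2, adjusted p = 0.00358). Ythdf1, known for promoting translation of marked transcripts, also rose (log2 fold change 0.65, SE 0.17, adjusted p = 0.0131), and Ythdc2, a reader with helicase activity, was low throughout, at 1.0, 1.17, 0.405 and 4.2 CPM in the knockouts, and passed the threshold with knockout 4 in the fit (adjusted p = 0.0157, and 0.0638 without it). The lower reader was Hnrnpa2b1 (log2 fold change -0.47, SE 0.16, adjusted p = 0.046), which did not pass with plain totals (adjusted p = 0.75) or in 6 of 8 fits that left out 1 liver, those without flox/flox 1, 2 or 3 or knockout 2, 3 or 4 (adjusted p up to 0.127). With plain totals 5 writers, 2 erasers and 6 readers were called higher.

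Genes of the circadian clock changed in both directions. The hour of collection is not given, so an effect of the knockout and a difference in hour between the groups cannot be told apart. In the clock, BMAL1 (Arntl) pairs with CLOCK or NPAS2 and drives transcription from E-box sequences, PER and CRY proteins and CIART repress that pair, and the nuclear receptors REV-ERB (Nr1d1, Nr1d2) repress Arntl itself. Of 14 tested core genes, 7 were lower and 2 higher, and of 14 tested output genes, 8 were lower and 1 higher, with medians of -0.63 and -1.19 on the log2 scale beside 0.04 for all tested genes. The same counts were obtained without knockout 4, and with plain totals they were 5 lower and 4 higher of the core genes and 8 lower and 3 higher of the output genes.

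To show the promoters of genes that fell together, the RefSeq sequences from 250 bases before to 50 bases after the annotated start (GRCm38.p6) were searched for the E-box CACGTG, which reads the same on both strands, and for a D-box written as TTATGTAA or, on the other strand, TTACATAA. The E-box letters were found in 7.15% and the D-box letters in 0.938% of 32851 promoters of this length. Of 14 clock genes called lower with a promoter in the table, 4 held the E-box letters in at least 1 promoter and 1 held the D-box letters, against 8.09% and 1.11% of all 27025 genes counted the same way. The E-box share was the same among clock genes that did not pass, in which 2 of 7 genes held the letters (28.6% in both sets). Of 3 clock genes called higher, 0 held them. Sets this small cannot show whether the letters set the genes that fell apart from other clock genes. For each of the 5 genes called lower that held E-box or D-box letters, 1 promoter with the letters is printed 5′ to 3′ on the strand of the gene, with the matches in capitals. Ciart lies at chr3:95882179-95882478 on the minus strand and held 3 E-box matches, Per1 at chr11:69098699-69098998 on the plus strand and Cry1 at chr10:85185005-85185304 on the minus strand held 1 each, Tef at chr15:81802423-81802722 on the plus strand held 1, and Per3 at chr4:151044616-151044915 on the minus strand held 2 D-box matches. A match describes these letters only.
Ciart: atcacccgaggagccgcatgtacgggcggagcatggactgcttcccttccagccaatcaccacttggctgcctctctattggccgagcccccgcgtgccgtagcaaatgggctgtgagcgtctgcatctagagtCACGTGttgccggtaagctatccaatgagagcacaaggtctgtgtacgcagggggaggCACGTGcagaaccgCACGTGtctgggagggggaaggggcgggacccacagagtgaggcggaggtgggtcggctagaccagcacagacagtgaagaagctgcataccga
Per1: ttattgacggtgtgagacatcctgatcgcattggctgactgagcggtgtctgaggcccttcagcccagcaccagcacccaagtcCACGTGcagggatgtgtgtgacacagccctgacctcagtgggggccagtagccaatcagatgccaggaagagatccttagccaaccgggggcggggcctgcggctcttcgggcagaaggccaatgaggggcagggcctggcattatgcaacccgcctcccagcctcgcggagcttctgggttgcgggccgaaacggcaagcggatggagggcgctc
Cry1: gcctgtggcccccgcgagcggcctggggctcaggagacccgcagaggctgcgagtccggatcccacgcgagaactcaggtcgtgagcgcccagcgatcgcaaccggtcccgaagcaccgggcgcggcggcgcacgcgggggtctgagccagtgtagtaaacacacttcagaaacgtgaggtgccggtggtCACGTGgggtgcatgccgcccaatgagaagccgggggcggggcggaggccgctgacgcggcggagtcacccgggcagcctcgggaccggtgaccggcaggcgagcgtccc
Tef: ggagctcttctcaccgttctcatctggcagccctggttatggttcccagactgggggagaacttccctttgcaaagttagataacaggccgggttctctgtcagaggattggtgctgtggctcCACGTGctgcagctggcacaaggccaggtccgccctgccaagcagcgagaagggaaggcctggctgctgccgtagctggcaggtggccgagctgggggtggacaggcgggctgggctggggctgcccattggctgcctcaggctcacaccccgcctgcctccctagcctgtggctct
Per3: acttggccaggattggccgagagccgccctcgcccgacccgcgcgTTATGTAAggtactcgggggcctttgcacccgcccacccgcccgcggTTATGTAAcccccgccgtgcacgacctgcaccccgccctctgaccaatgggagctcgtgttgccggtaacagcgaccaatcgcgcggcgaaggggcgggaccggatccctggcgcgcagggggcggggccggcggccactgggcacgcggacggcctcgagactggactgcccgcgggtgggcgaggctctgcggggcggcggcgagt

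Genes of the repressors fell. Ciart, listed in the table under its older name Gm129, was measured at 9.02, 17.9, 17.7 and 28.2 CPM in flox/flox livers 1 to 4 and 0.240, 0.120, 0.871 and 0.323 CPM in knockout livers 1 to 4, and all knockouts lay below 1 CPM (log2 fold change -5.51, SE 0.57, adjusted p = 0.000339). Per3 stood at 39.8, 64.3, 54.4 and 52.8 CPM in flox/flox livers 1 to 4 and 5.57, 6.8, 2.8 and 6.42 CPM in knockout livers 1 to 4 (log2 fold change -3.29, SE 0.27, adjusted p = 6.24e-05), and Per1 at 28.6, 60.7, 66.4 and 41.1 CPM in flox/flox livers 1 to 4 and 2.96, 6.11, 7.38 and 5.72 CPM in knockout livers 1 to 4 (log2 fold change -3.14, SE 0.33, adjusted p = 0.000351). Every knockout lay several-fold below every flox/flox liver for both. Cry1 and Cry2 were lower by less, with log2 fold changes of -0.79 (adjusted p = 0.00833) and -1.14 (adjusted p = 0.0108), and neither passed with plain totals (adjusted p = 0.122 and 0.0617).

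On the activating side, Npas2 and Arntl rose. Npas2 went from 0.204, 0.452, 0.745 and 0.0428 CPM in flox/flox livers 1 to 4 to 9.01, 8.4, 21.3 and 13 CPM in knockout livers 1 to 4 (log2 fold change 5.16, SE 0.61, adjusted p = 0.000456). Arntl went from 8.24, 4.27, 9.22 and 2.7 CPM to 24.4, 23.7, 24 and 19.7 CPM (log2 fold change 1.91, SE 0.33, adjusted p = 0.00233). In both genes the lowest knockout exceeded the highest flox/flox liver. Clock, their partner, did not pass (log2 fold change 0.18, SE 0.18, adjusted p = 0.471). Nr1d2 fell (log2 fold change -1.07, SE 0.25, adjusted p = 0.00814), while Nr1d1 was at 53, 24.1, 22.9 and 13.9 CPM in the knockouts and did not pass (adjusted p = 0.487).

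Output genes fell in most cases. Usp2, a deubiquitinating enzyme under clock control, had the lowest p of all genes, at 53.1, 67.6, 42.3 and 67.2 CPM in flox/flox livers 1 to 4 and 1.68, 2.11, 1.59 and 2.26 CPM in knockout livers 1 to 4. The knockouts lay within a narrow band far below the controls (log2 fold change -4.91, SE 0.21, adjusted p = 4.45e-07). Dbp, a D-box transcription factor, was measured at 29.5, 69.6, 55.2 and 83.3 CPM in flox/flox livers 1 to 4 and 3.52, 2.59, 1.15 and 2.03 CPM in knockout livers 1 to 4 (log2 fold change -4.68, SE 0.42, adjusted p = 0.00028). Its relatives Tef and Hlf fell as well, with log2 fold changes of -2.47 (SE 0.29) and -1.43 (SE 0.19). Upp2, a uridine phosphorylase, was at 1172, 1080.0, 1030.0 and 1049 CPM in flox/flox livers 1 to 4 and 275, 102, 87 and 63 CPM in knockout livers 1 to 4, so that knockout 1 was the highest of the knockouts and still well below the controls (log2 fold change -3.04, SE 0.43, adjusted p = 0.00118). Noct (listed as Ccrn4l), which encodes the rhythmic protein nocturnin, and Tsc22d3, a glucocorticoid-induced leucine zipper gene, also fell (-2.51 and -1.83). Nampt, which makes a precursor of NAD, fell by less (log2 fold change -0.95, SE 0.14, adjusted p = 0.00104). The output gene that rose was Avpr1a, the vasopressin receptor (log2 fold change 0.61, SE 0.18, adjusted p = 0.0226), which did not pass without flox/flox 2, 3 or 4 or knockout 2 or 3 (adjusted p up to 0.076).

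**Figure D2:**
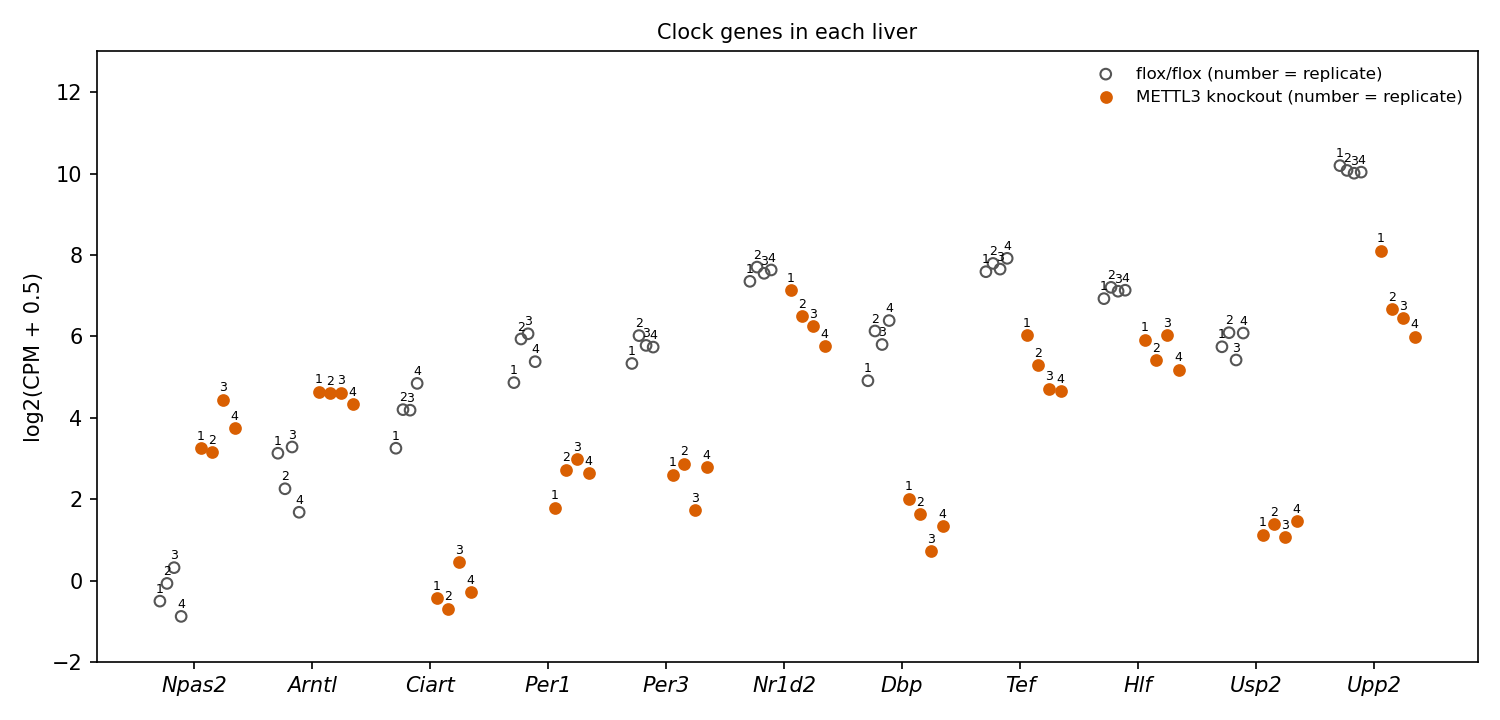
Levels of 11 clock genes in each liver, as log2(CPM + 0.5), with flox/flox livers as open and knockout livers as filled points numbered by replicate. Npas2 and Arntl are higher, and Ciart, Per1, Per3, Dbp, Usp2, Tef, Upp2, Nr1d2 and Hlf lower, in all 4 knockouts than in all 4 flox/flox livers.

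Lipid handling genes were mostly lower. Mfsd2a, which encodes a transporter of lysophosphatidylcholine with docosahexaenoic acid, was measured at 91.8, 160.3, 204 and 158 CPM in flox/flox livers 1 to 4 and 2.64, 2.23, 4.11 and 3.83 CPM in knockout livers 1 to 4. Every knockout lay far below every flox/flox liver (log2 fold change -5.58, SE 0.3, adjusted p = 5.11e-06). Of 19 tested genes of fatty acid uptake and activation, 10 were lower and 2 higher. Slc27a2, the main very-long-chain fatty acid transporter and ligase of hepatocytes, was at 3069, 3005, 2786 and 2764 CPM in flox/flox livers 1 to 4 and 1548, 778, 662 and 448 CPM in knockout livers 1 to 4 (log2 fold change -1.76, SE 0.33, adjusted p = 0.00313). The higher ones were the acyl-CoA synthetases Acsl3 (log2 fold change 1.17, SE 0.15, adjusted p = 0.000456) and Acsl4 (log2 fold change 2.64, SE 0.31, adjusted p = 0.000548), the latter selective for arachidonic acid. Acsl4 was highest in knockout 4, at 28.1, 45.5, 57 and 90.7 CPM in knockouts 1 to 4, and its log2 fold change without that liver was 2.3.

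Lipid droplet and lipolysis genes showed 9 of 15 lower and 1 higher, or 9 and 0 without knockout 4. Plin4, a droplet coat protein, was at 6.37, 5.38, 14.6 and 5.65 CPM in flox/flox livers 1 to 4 and 0.801, 0.632, 0.934 and 0.554 CPM in knockout livers 1 to 4 (log2 fold change -3.44, SE 0.42, adjusted p = 0.000434). Mgll, the monoacylglycerol lipase, was at 239, 259.5, 254 and 209.8 CPM in flox/flox livers 1 to 4 and 90.5, 68.3, 68.5 and 64 CPM in knockout livers 1 to 4 (log2 fold change -1.72, SE 0.15, adjusted p = 9.9e-05). Neither gene overlapped between the groups. Cidec, which promotes droplet growth, was low in both, at 1.92, 4.15, 9.36 and 1.97 CPM in flox/flox livers and 0.120, 0.482, 1.37 and 0.739 CPM in knockouts (log2 fold change -2.66, SE 0.73, adjusted p = 0.0179), and it did not pass without flox/flox 3 or knockout 2 (adjusted p up to 0.0886). Plin5 fell too (log2 fold change -1.14, SE 0.2, adjusted p = 0.00203). In triglyceride assembly 6 of 10 tested genes were lower and none higher. Without knockout 4 the counts were 4 and 0, and with plain totals 3 were lower and 3 higher. Lpin1, a phosphatidate phosphatase, was at 263, 273, 181 and 353 CPM in flox/flox livers 1 to 4 and 65.3, 47.1, 76.8 and 60.1 CPM in knockout livers 1 to 4 (log2 fold change -2.1, SE 0.22, adjusted p = 0.000194), and Dgat2, the enzyme of the last step, fell by less (log2 fold change -1.02, SE 0.17, adjusted p = 0.0018).

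Fatty acid oxidation and PPAR alpha targets had 19 of 27 tested members lower and 1 higher, with a median log2 fold change of -0.92. Acaa1a, a peroxisomal thiolase, was at 143, 169.6, 166 and 166 CPM in flox/flox livers 1 to 4 and 79.3, 64.3, 53.4 and 37.2 CPM in knockout livers 1 to 4 (log2 fold change -1.46, SE 0.2, adjusted p = 0.000673). Hadh, a mitochondrial dehydrogenase of the same pathway, was at 438, 415, 544 and 447 CPM in flox/flox livers 1 to 4 and 236, 208, 199 and 137 CPM in knockout livers 1 to 4 (log2 fold change -1.24, SE 0.19, adjusted p = 0.00113). The knockouts lay below the controls in both, with knockout 4 lowest. Slc25a20, the carnitine carrier, and Acadl, a long-chain dehydrogenase, fell by a similar amount (-1.19 and -1.01), as did the PPAR alpha target Vnn1 (-1.4).

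The lipogenesis list was mixed, with 7 of 20 tested members lower and 2 higher, a median of -0.37 that turned to 0.03 with plain totals. Thrsp, a cofactor of fatty acid synthesis that responds to thyroid hormone and carbohydrate, was at 568, 462, 378 and 343 CPM in flox/flox livers 1 to 4 and 18.1, 41.5, 95.3 and 39.7 CPM in knockout livers 1 to 4, lowest in knockout 1 (log2 fold change -3.17, SE 0.47, adjusted p = 0.00201). The desaturases Fads1 and Fads2 fell (-1.2 and -1.55). Fasn, the fatty acid synthase itself, was at 165, 192, 147 and 129.9 CPM in flox/flox livers 1 to 4 and 93.1, 184, 274 and 193 CPM in knockout livers 1 to 4, and the ranges overlapped (log2 fold change 0.23, SE 0.27, adjusted p = 0.54). Srebf1, its transcription factor, did not pass either (log2 fold change -0.28, SE 0.18, adjusted p = 0.257). Acaca, which makes malonyl-CoA, was higher, at 93.5, 187, 294 and 208 CPM in knockouts 1 to 4 against 105, 90.5, 73.8 and 66.4 CPM in flox/flox livers, with knockout 1 inside the control range (log2 fold change 1.22, SE 0.3, adjusted p = 0.0129).

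Cholesterol synthesis went the other way. Of 23 tested genes, 8 were higher and 1 lower (7 and 1 without knockout 4, and 16 and 1 with plain totals). Sqle, the squalene epoxidase, was at 19.1, 23.1, 14.9 and 17 CPM in flox/flox livers 1 to 4 and 27.2, 109.7, 112 and 103 CPM in knockout livers 1 to 4. Knockouts 2 to 4 lay far above the controls and knockout 1 just above them (log2 fold change 2.25, SE 0.42, adjusted p = 0.00556). Hmgcs1 was at 192, 211, 255 and 212 CPM in flox/flox livers 1 to 4 and 258, 516, 567 and 485 CPM in knockout livers 1 to 4 (log2 fold change 1.07, SE 0.23, adjusted p = 0.00576). Idi1 and Cyp51, further enzymes of the pathway, rose (1.34 and 0.96). Ebp, a sterol isomerase, was the lower member (log2 fold change -1.05, SE 0.17, adjusted p = 0.00148).

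Lipoprotein and bile acid genes fell in part. In the lipoprotein and cholesterol export list 9 of 20 tested members were lower and 1 higher, and the falls included Apoc3, an inhibitor of lipoprotein clearance, at 803, 895, 851 and 645 CPM in flox/flox livers 1 to 4 and 355, 300.3, 357 and 231 CPM in knockout livers 1 to 4 (log2 fold change -1.36, SE 0.19, adjusted p = 0.000792), and Apoa4 (log2 fold change -1.42, SE 0.25, adjusted p = 0.00204). Apob, the backbone of very-low-density lipoprotein, did not pass (log2 fold change 0.12, SE 0.23, adjusted p = 0.711). In the bile acid list 9 of 22 were lower and 1 higher, and with plain totals 9 and 5. Cyp7a1, the rate-limiting enzyme of bile acid synthesis, was at 267, 237, 291 and 263 CPM in flox/flox livers 1 to 4 and 50.1, 87.1, 117 and 64.5 CPM in knockout livers 1 to 4 (log2 fold change -1.73, SE 0.23, adjusted p = 0.000647). Every knockout was below every control, with knockout 1 lowest. Nr1h4, the bile acid receptor FXR, and Slc10a1, the uptake transporter NTCP, fell as well (-1.11 and -1.46), and Cyp8b1 was at 115, 33.3, 50.2 and 23.8 CPM in knockouts against 171, 175, 358 and 208 CPM (log2 fold change -2.04, SE 0.51, adjusted p = 0.0199), with an adjusted p of 0.0558 without knockout 3.

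Genes of amino acid and nitrogen metabolism fell in most cases. Of 29 tested genes of amino acid catabolism 24 were lower and none higher, with a median log2 fold change of -1.17. The count was 22 lower without knockout 4 and 19 lower with plain totals, with none higher in either. Sds, the serine dehydratase, was at 112, 148, 179 and 163 CPM in flox/flox livers 1 to 4 and 48.8, 38.4, 51.9 and 33.7 CPM in knockout livers 1 to 4 (log2 fold change -1.8, SE 0.19, adjusted p = 0.000194). Gpt2, the mitochondrial alanine aminotransferase, was at 664, 627, 818 and 835 CPM in flox/flox livers 1 to 4 and 267, 317, 344 and 269 CPM in knockout livers 1 to 4 (log2 fold change -1.3, SE 0.17, adjusted p = 0.000647). The groups did not overlap in either gene. Prodh, the proline dehydrogenase, and Shmt1, a serine hydroxymethyltransferase, fell as well (-1.75 and -1.25).

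In the urea cycle 6 of 8 tested genes were lower and none higher (5 and 0 without knockout 4). Asl, which cleaves argininosuccinate, was at 617, 761, 741 and 519.7 CPM in flox/flox livers 1 to 4 and 174, 108, 109 and 75.2 CPM in knockout livers 1 to 4 (log2 fold change -2.5, SE 0.26, adjusted p = 0.000189). Ass1, Arg1 and Otc fell too, with log2 fold changes of -1.67, -1.28 and -1.14. Cps1, the entry enzyme, was at 3409, 2225, 2775 and 3476 CPM in flox/flox livers 1 to 4 and 3609, 1899, 2537 and 2136 CPM in knockout livers 1 to 4 and did not pass (log2 fold change -0.22, SE 0.25, adjusted p = 0.518). Knockout 1 had the highest level of all 8 livers for Cps1.

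Glucose metabolism was lower in 13 of 21 tested genes and higher in 3 (11 and 2 without knockout 4, 10 and 4 with plain totals). Slc37a4, which carries glucose 6-phosphate into the endoplasmic reticulum, was at 166, 150.1, 166 and 189 CPM in flox/flox livers 1 to 4 and 40.0, 37.3, 54.8 and 34.6 CPM in knockout livers 1 to 4 (log2 fold change -2.01, SE 0.16, adjusted p = 6.24e-05). Pfkfb1, the liver bifunctional enzyme that sets fructose 2,6-bisphosphate, was at 104, 87.3, 95.4 and 88.5 CPM in flox/flox livers 1 to 4 and 22, 20.3, 32.1 and 25.3 CPM in knockout livers 1 to 4 (log2 fold change -1.91, SE 0.16, adjusted p = 6.24e-05). These were among the 10 genes with the lowest p of the whole fit. Khk and Slc2a2, which handle fructose and glucose entry, fell (-1.55 and -1.28). Pck1, a key enzyme of gluconeogenesis, was at 2876, 716, 876 and 492 CPM in knockouts against 2533, 4414, 5106 and 2977 CPM. It passed with all livers (log2 fold change -1.6, SE 0.54, adjusted p = 0.0491), and of the 8 fits that left out 1 liver it passed in the fit without knockout 1 (adjusted p = 7.74e-05) and in none of the other 7 (adjusted p up to 0.114), and its adjusted p by DESeq2 was 0.0528. Knockout 1 lay within the control range. Of 9 tested glycogen genes 6 were lower and 1 higher (4 and 2 with plain totals), among them Gys2, the liver glycogen synthase (log2 fold change -1.71, SE 0.33, adjusted p = 0.00434).

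Oxidative phosphorylation fell in most of its members. Of 37 tested genes 34 were lower and none higher, with a median log2 fold change of -0.75. The count was 31 without knockout 4 and 16 with plain totals, where the median was -0.35. Ndufb3, a subunit of complex I, was at 52.6, 50.7, 57.9 and 54.2 CPM in flox/flox livers 1 to 4 and 24.5, 23.5, 23.1 and 20.4 CPM in knockout livers 1 to 4 (log2 fold change -1.23, SE 0.12, adjusted p = 0.000168). Sdhb, a subunit of complex II, was at 202, 210.5, 198 and 176 CPM in flox/flox livers 1 to 4 and 102, 89.7, 86.9 and 68.1 CPM in knockout livers 1 to 4 (log2 fold change -1.18, SE 0.15, adjusted p = 0.000465). No knockout reached any flox/flox liver in either gene. The antioxidant enzymes Sod1 and Sod2 fell by similar amounts (-1.25 and -1.01).

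Proteasome genes were also lower on the TMM scale, in 18 of 31 tested members with none higher (17 and 0 without knockout 4). The median was -0.49, and with plain totals 4 were lower and 3 higher, so their fall rests on the scaling. Psmb1, a subunit of the catalytic ring, was at 117, 118, 127 and 108 CPM in flox/flox livers 1 to 4 and 78.2, 70.4, 74.9 and 63.5 CPM in knockout livers 1 to 4 (log2 fold change -0.71, SE 0.12, adjusted p = 0.00181), and its adjusted p with plain totals was 0.0541.

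In drug metabolism, cytochrome P450 genes fell more often than they rose, and conjugation enzymes moved in both directions. Of 28 cytochrome P450 genes and partners tested, 14 were lower and 2 higher, with a median of -1.06. The counts were 14 and 1 without knockout 4 and 14 and 3 with plain totals. Por, the reductase that supplies electrons to microsomal P450 enzymes, was at 462, 504, 436 and 408 CPM in flox/flox livers 1 to 4 and 148, 93.2, 102 and 73.5 CPM in knockout livers 1 to 4 (log2 fold change -2.12, SE 0.21, adjusted p = 0.000176). Cyp2b9 was at 40.1, 77.8, 189.6 and 62.2 CPM in flox/flox livers 1 to 4 and 1.04, 1.9, 0.373 and 0.970 CPM in knockout livers 1 to 4 (log2 fold change -6.41, SE 0.7, adjusted p = 0.00103), with an adjusted p of 0.0528 by limma's voom with quality weights. Cyp3a11, by contrast, rose, at 1588, 1499, 1354 and 1032 CPM in flox/flox livers 1 to 4 and 4995, 5606, 5710.4 and 3909.9 CPM in knockout livers 1 to 4 (log2 fold change 1.89, SE 0.22, adjusted p = 0.000364). All 4 knockouts lay far above every flox/flox liver in that gene. The nuclear receptors CAR (Nr1i3) and PXR (Nr1i2), which control these enzymes, both fell. Nr1i3 was at 732, 1417, 1143 and 880.5 CPM in flox/flox livers 1 to 4 and 279, 104, 71.9 and 36.1 CPM in knockout livers 1 to 4 (log2 fold change -3.09, SE 0.61, adjusted p = 0.00715), and Nr1i2 had a log2 fold change of -1.09. Among 28 tested conjugation enzymes 9 were lower and 5 higher (9 and 8 with plain totals). The sulfotransferase Sult1a1 fell (log2 fold change -1.8, SE 0.18, adjusted p = 0.000172) and the glucuronosyltransferase Ugt1a9 rose, at 57.1, 61.4, 38 and 39 CPM in knockouts against 7.02, 4.97, 12.3 and 4.37 CPM (log2 fold change 2.78, SE 0.33, adjusted p = 0.000542). Genes of the Cyp2, Ugt1 and related families have near-identical copies, and Ugt1a genes share exons, so the counting could have split their reads.

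Alas1, which starts haem synthesis, was at 733, 413, 402 and 581 CPM in flox/flox livers 1 to 4 and 173, 109, 128 and 123 CPM in knockout livers 1 to 4 (log2 fold change -2.0, SE 0.23, adjusted p = 0.000351). In the iron and haem list 5 of 21 were lower and 1 higher (4 and 5 with plain totals), and the median of -0.31 turned to 0.11 with plain totals. Tfrc, the transferrin receptor, rose (log2 fold change 1.21, SE 0.23, adjusted p = 0.0034).

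Transcription factors of hepatocyte identity were lower in 7 of 17 and higher in none, and with plain totals in 4 and 1. Cebpa was at 272, 273, 256 and 281 CPM in flox/flox livers 1 to 4 and 142, 121, 112 and 76.3 CPM in knockout livers 1 to 4 (log2 fold change -1.26, SE 0.18, adjusted p = 0.000849). Hnf4a, which drives a large part of the hepatocyte program, was at 841, 707, 839.8 and 859 CPM in flox/flox livers 1 to 4 and 617, 474, 464 and 335 CPM in knockout livers 1 to 4 (log2 fold change -0.78, SE 0.2, adjusted p = 0.013). Knockout 4 was lowest in both genes. Of 43 tested plasma protein genes 14 were lower and 2 higher (9 and 13 with plain totals), and their median of -0.29 turned to 0.1 with plain totals. Albumin did not pass (Alb, log2 fold change -0.75, SE 0.32, adjusted p = 0.092). Rbp4, the retinol carrier, fell (log2 fold change -1.69, SE 0.29, adjusted p = 0.00181).

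Zonation lists held falls on both sides of the lobule. Among pericentral genes 14 of 24 were lower and 1 higher (11 and 4 with plain totals), and among periportal genes 8 of 19 were lower and 2 higher (8 and 3). Glul, the glutamine synthetase of the cells around the central vein, was at 1567, 1492, 1494 and 2063 CPM in flox/flox livers 1 to 4 and 1201, 527, 959.6 and 358 CPM in knockout livers 1 to 4 (log2 fold change -1.12, SE 0.33, adjusted p = 0.0268), and Cyp2e1 was at 18212, 17393, 17716 and 18566 CPM in flox/flox livers 1 to 4 and 11419.9, 6439.5, 6123 and 2899 CPM in knockout livers 1 to 4 (log2 fold change -1.42, SE 0.35, adjusted p = 0.0104). For both, knockout 4 was lowest and knockout 1 highest among the knockouts, and Glul did not pass when any 1 of flox/flox 1 to 4 or knockout 2 was left out (adjusted p up to 0.0794). Axin2 and Lgr5, markers of WNT signalling there, did not pass (adjusted p = 0.124 and 0.921). Cdh1, the periportal adhesion protein E-cadherin, rose from 31, 22.1, 14.9 and 36.5 CPM to 132, 256, 261 and 247 CPM (log2 fold change 3.1, SE 0.31, adjusted p = 0.000315). Of 15 tested female-biased genes 6 were lower and none higher (6 and 2 with plain totals). Of 19 male-biased genes 2 were higher and 1 lower (5 and 1), both below the shares of 15.2% and 15.3% among all tested genes.

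**Figure D3:**
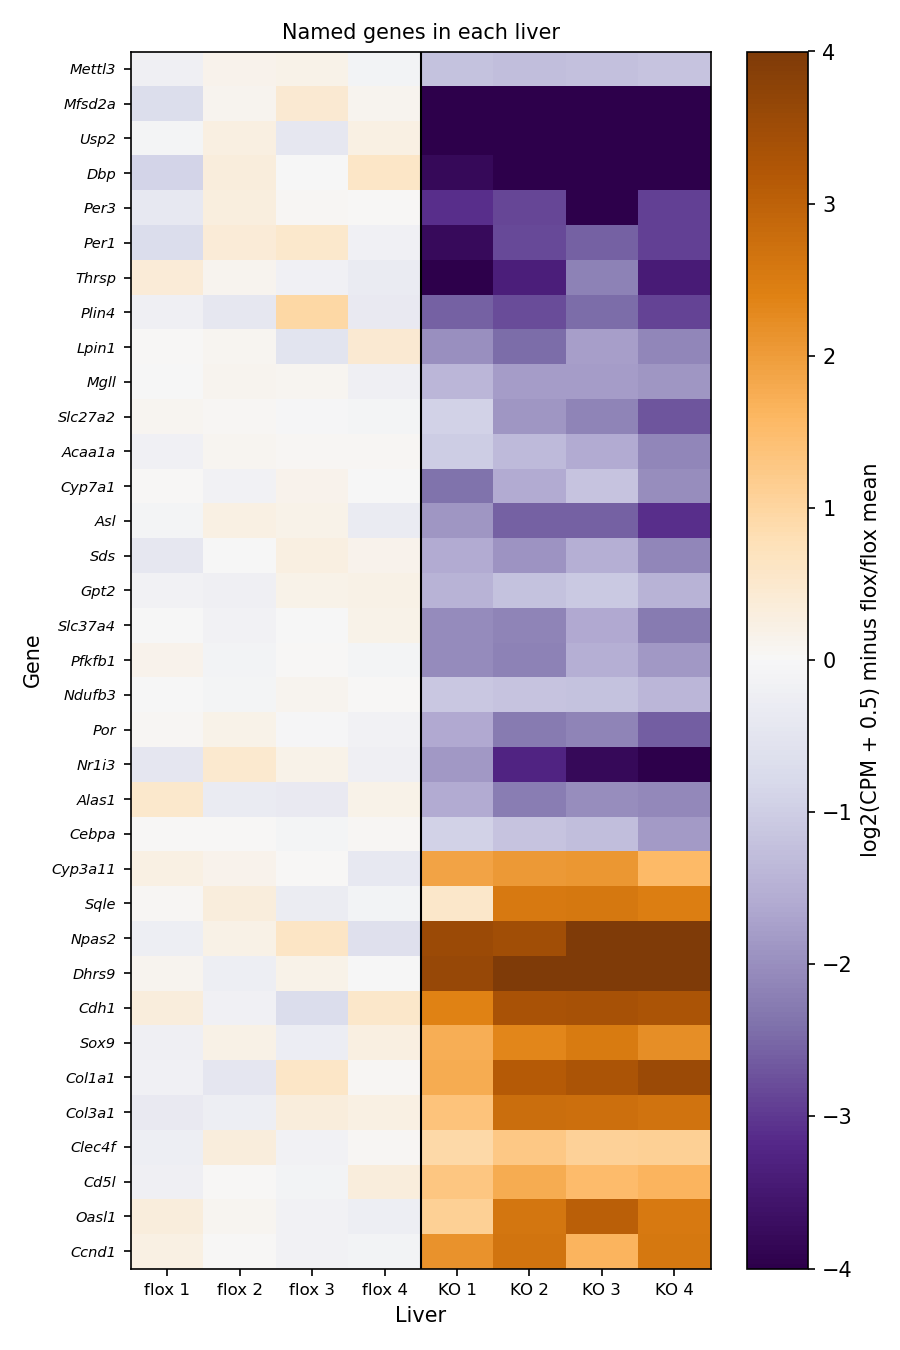
Levels of 35 named genes in each of the 8 livers as log2 of CPM + 0.5, minus the mean of the 4 flox/flox livers, coloured from purple (lower) to orange (higher) and limited at -4 and 4. The rows from Mettl3 to Cebpa are purple and those from Cyp3a11 to Ccnd1 orange in the knockout columns, and knockout 1 is the knockout nearest to the flox/flox mean in 19 of the 35 rows.

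Extracellular matrix genes rose. Of 32 tested members 23 were higher and none lower, with a median log2 fold change of 1.52 (1.12 and 22 higher without knockout 4). Col1a1, a chain of type I collagen, was at 2.53, 2.01, 4.56 and 3.0 CPM in flox/flox livers 1 to 4 and 11, 29.4, 33.2 and 38.9 CPM in knockout livers 1 to 4 (log2 fold change 3.22, SE 0.4, adjusted p = 0.000647). Col3a1 was at 19.4, 21.1, 31.8 and 29.8 CPM in flox/flox livers 1 to 4 and 65.3, 172, 169.6 and 161 CPM in knockout livers 1 to 4 (log2 fold change 2.48, SE 0.31, adjusted p = 0.000755). Knockout 1 was lowest of the knockouts and still above all controls in both. Col6a3, Lum and Fbn1 rose with log2 fold changes of 1.82, 1.6 and 2.48. Among 16 tested markers of stellate cells and fibroblasts 11 were higher and 1 lower (10 and 0 without knockout 4). These 16 markers summed to 756 to 1159.5 CPM of plain totals in knockouts against 410.2 to 537 CPM in flox/flox livers. Pdgfrb, a receptor that defines these cells, was at 8.08, 8.83, 9.32 and 9.89 CPM in flox/flox livers 1 to 4 and 17.7, 18.6, 25.6 and 23.9 CPM in knockout livers 1 to 4 (log2 fold change 1.25, SE 0.18, adjusted p = 0.00078), and Acta2, a marker of activated stellate cells, did not pass (log2 fold change 0.37, SE 0.51, adjusted p = 0.603). In whole liver, more cells of a type and more RNA per cell cannot be told apart.

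Macrophage transcripts rose as a group. Of 17 tested Kupffer cell and macrophage markers 16 were higher and none lower, 15 without knockout 4, and the 18 markers summed to 679, 1226, 1123 and 2852 CPM in knockouts 1 to 4 against 247 to 368 CPM in flox/flox livers, none of them being at 0 in either group. Clec4f, a lectin particular to Kupffer cells, was at 42.9, 64.5, 45.8 and 52.8 CPM in flox/flox livers 1 to 4 and 96.4, 123, 107 and 109.9 CPM in knockout livers 1 to 4 (log2 fold change 1.08, SE 0.15, adjusted p = 0.000673). Cd5l was at 38.4, 44.6, 41.2 and 55.5 CPM in flox/flox livers 1 to 4 and 110.1, 151, 127 and 139 CPM in knockout livers 1 to 4 (log2 fold change 1.55, SE 0.15, adjusted p = 0.000172), and Vsig4 and Timd4, further Kupffer cell genes, rose as well (1.38 and 1.6). For each of these, all knockouts lay above all flox/flox livers. Lipid-associated macrophage markers were higher in 6 of 11 (5 without knockout 4, 9 with plain totals), and their sum was 1035, 1765, 1822 and 9844 CPM in knockouts 1 to 4 against 695 to 963 CPM. Lpl, the lipoprotein lipase, was at 2.24, 4.31, 3.17 and 3.51 CPM in flox/flox livers 1 to 4 and 17, 24.9, 23.2 and 36.4 CPM in knockout livers 1 to 4 (log2 fold change 2.93, SE 0.27, adjusted p = 0.000141). Gpnmb, another marker of that list, was at 9.05, 9.54, 38.1 and 1446 CPM in knockouts 1 to 4 and did not pass (adjusted p = 0.0794), knockout 4 standing far above the other 3. Trem2 passed with all livers (adjusted p = 0.0445) and not without knockout 2 or 4 or any 1 of the flox/flox livers (adjusted p up to 0.171), nor with the replicate block (adjusted p = 0.145) or in the fit of 16 livers (adjusted p = 0.0827). The brain list moved with knockout 4 too, and its part in these results was not tested beyond leaving that liver out.

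Other cell type lists differed less evenly. Of 17 tested endothelial markers 5 were higher (10 with plain totals), including Cdh5 (log2 fold change 0.97, SE 0.18, adjusted p = 0.00318). Of 10 monocyte and neutrophil markers in the table, 3 were at 0 in all flox/flox livers, and 5 passed the count filter and were tested. All 5 were higher. Genes so low in the controls can pass the filter through the knockouts alone, so that count adds no support. Ccr2, a monocyte chemokine receptor, was at 3.88, 3.7, 2.47 and 1.58 CPM in flox/flox livers 1 to 4 and 5.61, 13.5, 11.8 and 11.6 CPM in knockout livers 1 to 4 (log2 fold change 1.87, SE 0.35, adjusted p = 0.00326). Among 12 tested cholangiocyte markers 5 were higher. Sox9, a transcription factor of bile duct and progenitor cells, was at 6.65, 9.0, 6.29 and 9.29 CPM in flox/flox livers 1 to 4 and 26.7, 40.2, 46.5 and 37.2 CPM in knockout livers 1 to 4 (log2 fold change 2.27, SE 0.21, adjusted p = 0.000123). Krt8 and Krt18, keratins that hepatocytes also make, rose (1.28 and 1.43), while Krt19 and Krt7, which mark bile ducts, and Epcam did not pass (adjusted p = 0.384, 0.358 and 0.114). None of the 10 tested lymphocyte markers was lower and 2 were higher, which is near the share of 15.2% among all tested genes. In the fetal and tumour-associated list 7 of 12 were higher. Ly6d, a cell surface protein, was at 0.521, 12.9, 18.4 and 25.1 CPM in knockouts 1 to 4 against 0.530, 0, 0.279 and 0.0428 CPM, with knockout 1 in the control range (log2 fold change 6.03, SE 1.32, adjusted p = 0.0128, and an adjusted p of 0.234 by limma's voom with quality weights). Afp, the fetal liver protein, stayed under 1 CPM in every liver.

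**Figure D4:**
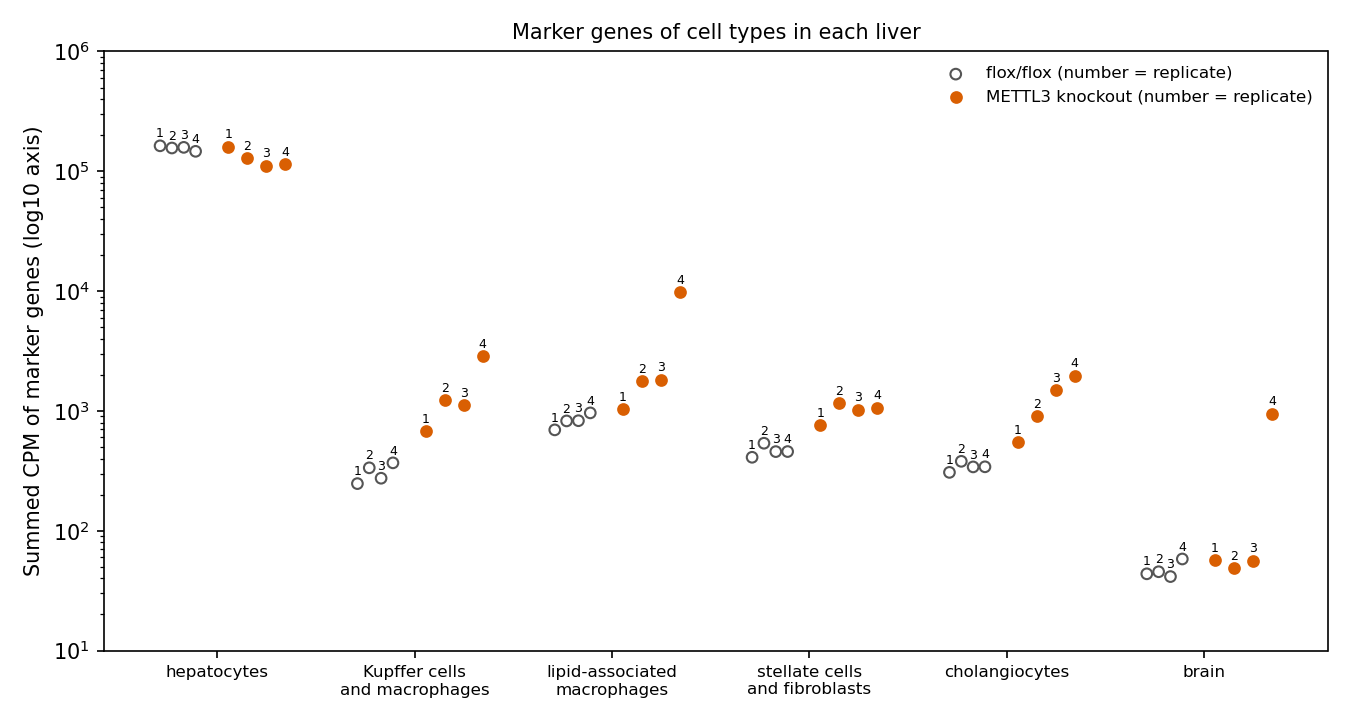
Summed CPM of the marker genes of 6 cell types in each liver over plain library totals, on a log10 axis, flox/flox livers as open and knockout livers as filled points numbered by replicate. Kupffer cell and stellate cell sums are higher in all knockouts than in all flox/flox livers, and the brain sum stands apart only in knockout 4, at 948 CPM.

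Interferon-stimulated genes were higher in 22 of 37 tested members and lower in 1, and in 21 and 0 without knockout 4. Oasl1, an antiviral protein, was at 6.61, 5.5, 4.61 and 4.28 CPM in flox/flox livers 1 to 4 and 11.9, 34, 46.7 and 32.5 CPM in knockout livers 1 to 4 (log2 fold change 2.57, SE 0.36, adjusted p = 0.00113). Ifit2 was at 6.0, 9.2, 5.5 and 6.38 CPM in flox/flox livers 1 to 4 and 14.3, 20.1, 14.3 and 18.1 CPM in knockout livers 1 to 4 (log2 fold change 1.3, SE 0.22, adjusted p = 0.00181), and Rsad2 and Parp14 rose by similar amounts (1.05 and 0.89). Every knockout lay above every control in these genes. Of 15 tested sensors of double-stranded RNA and DNA 5 were higher and none lower (9 and 0 with plain totals). They included Ddx58, which encodes RIG-I (log2 fold change 0.75, SE 0.14, adjusted p = 0.00333), Ifih1, which encodes MDA5 (log2 fold change 0.46, SE 0.13, adjusted p = 0.022), which did not pass without flox/flox 1, 2 or 3 or knockout 2 (adjusted p up to 0.0746), and Eif2ak2, the kinase PKR (log2 fold change 0.62, SE 0.14, adjusted p = 0.00717). Interferon gamma-induced GTPases and their companions were higher in 10 of 17 and lower in none, such as Ifi47 (log2 fold change 1.6, SE 0.29, adjusted p = 0.00289). In antigen presentation 4 of 16 were higher and 3 lower, and with plain totals 5 and 0, the median turning from -0.18 to 0.24. The class II genes Cd74 and H2-Ab1 rose (1.14 and 1.1) and the class I gene H2-K1 was lower (log2 fold change -0.63, SE 0.16, adjusted p = 0.0132) and did not pass with plain totals (adjusted p = 0.211). H2 genes have near-identical copies.

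Among cytokines, chemokines and adhesion molecules 9 of 25 were higher and 2 lower (13 and 0 with plain totals). Icam1, an adhesion molecule, was at 7.39, 6.78, 10.3 and 6.25 CPM in flox/flox livers 1 to 4 and 11.1, 24.4, 22.1 and 20.1 CPM in knockout livers 1 to 4 (log2 fold change 1.34, SE 0.26, adjusted p = 0.00353), and Tgfb1, a profibrotic cytokine, was at 1.92, 2.92, 3.31 and 1.58 CPM in flox/flox livers 1 to 4 and 7.01, 5.15, 5.73 and 16.8 CPM in knockout livers 1 to 4 (log2 fold change 1.83, SE 0.42, adjusted p = 0.00814). Tgfb1 was highest in knockout 4. In the acute phase list 3 of 26 were higher and 4 lower, which is near or below the shares of 15.2% and 15.3% among all tested genes. With plain totals the counts were 7 and 3, the median turning from -0.05 to 0.33. Apcs, the serum amyloid P component, was at 42.7, 70.5, 59.8 and 40.8 CPM in flox/flox livers 1 to 4 and 109.7, 273, 347 and 366 CPM in knockout livers 1 to 4 (log2 fold change 2.36, SE 0.36, adjusted p = 0.0019), and Crp and Saa4 fell (-1.39 and -2.38). Tgfbr2 rose (log2 fold change 1.31, SE 0.21, adjusted p = 0.00163), as did Pdgfc, a growth factor for stellate cells (log2 fold change 2.06, SE 0.27, adjusted p = 0.000524).

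Cell cycle genes were higher in 15 of 37 and lower in 2, and the count of higher genes was 7 without knockout 4 and 23 with plain totals. Ccnd1, the cyclin of entry into the cycle, was at 14.3, 12.3, 11 and 11.3 CPM in flox/flox livers 1 to 4 and 54.9, 79.2, 39.3 and 75.8 CPM in knockout livers 1 to 4 (log2 fold change 2.35, SE 0.22, adjusted p = 0.00014). Mcm6, a replication helicase subunit, was at 2.57, 3.29, 5.4 and 2.96 CPM in flox/flox livers 1 to 4 and 6.77, 17.9, 21.9 and 20.4 CPM in knockout livers 1 to 4 (log2 fold change 2.24, SE 0.37, adjusted p = 0.00177). Mki67, a marker of cycling cells, was at 5.85, 14.5, 8.4 and 37.1 CPM in knockouts 1 to 4 against 2.12, 2.75, 4.05 and 1.71 CPM, highest in knockout 4 (log2 fold change 2.63, SE 0.58, adjusted p = 0.00965, and 1.85 without that liver). In all 3, no knockout reached down to the controls. Among p53 targets and cell death genes 10 of 27 were higher and 2 lower (16 and 1 with plain totals). Cdkn1a, which encodes the cell cycle inhibitor p21, was at 5.84, 5.09, 12.8 and 4.75 CPM in flox/flox livers 1 to 4 and 8.61, 47, 50.2 and 57.3 CPM in knockout livers 1 to 4, with knockout 1 within the control range (log2 fold change 2.52, SE 0.61, adjusted p = 0.0178, up to 0.0534 without flox/flox 1 or 2). Mlkl, the executor of necroptosis, rose (log2 fold change 1.72, SE 0.32, adjusted p = 0.0031).

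In the integrated stress response list 6 of 20 were higher and 2 lower, 4 and 2 without knockout 4, and 10 and 1 with plain totals. Asns, the asparagine synthetase, was at 0.857, 0, 0.326 and 0.557 CPM in flox/flox livers 1 to 4 and 3.4, 17, 10.4 and 27.7 CPM in knockout livers 1 to 4 (log2 fold change 5.05, SE 0.92, adjusted p = 0.00512), and Trib3 was at 1.67, 4.19, 2.05 and 4.33 CPM in flox/flox livers 1 to 4 and 5.97, 33.2, 17.3 and 42.3 CPM in knockout livers 1 to 4 (log2 fold change 3.01, SE 0.62, adjusted p = 0.00854). Atf4, the transcription factor that drives both, did not pass (log2 fold change 0.02, SE 0.19, adjusted p = 0.935). Atf3, at 0.961, 17.8, 17.4 and 51.3 CPM in knockouts 1 to 4, passed with all livers (adjusted p = 0.0402) and without knockout 1 (adjusted p = 0.000933), but in none of the other 7 fits that left out 1 liver (adjusted p up to 0.106), and its adjusted p by limma's voom with quality weights was 0.134. In the unfolded protein response list 4 of 23 were higher and 2 lower, which is near or below the shares of 15.2% and 15.3% among all tested genes, and with plain totals 13 and 1. Herpud1, a factor of endoplasmic reticulum-associated degradation, was at 471, 563, 632 and 709 CPM in flox/flox livers 1 to 4 and 182, 124, 185 and 66 CPM in knockout livers 1 to 4 (log2 fold change -2.09, SE 0.3, adjusted p = 0.000886), whereas the sensors Ern1 and Eif2ak3 rose (1.0 and 1.42).

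Of 1238 genes that met every condition set for naming a rise, the 15 with the greatest fold change included several barely present in the controls. Tmc5, a transmembrane channel-like protein, had no read in any flox/flox liver and 0.641, 0.933, 4.61 and 7.16 CPM in knockouts 1 to 4. The mean of the knockouts was at least 26-fold above the controls, whose level was set at a limit of 3 counts per library. Vmn2r3, a gene of the vomeronasal receptor family, had 694 reads over the knockouts and 1 over the flox/flox livers. The ratio of its levels was 580.5, with a 95% exact interval from 104 to 22959.6 that covers counting error only. Cib3, a calcium-binding protein, was at 0.939, 2.1, 0 and 0.385 CPM in flox/flox livers 1 to 4 and 5.17, 85.3, 72.2 and 47.1 CPM in knockout livers 1 to 4, far lower in knockout 1 than in the other knockouts (log2 fold change 5.9, SE 1.18, adjusted p = 0.0109), and it did not pass by limma's voom with quality weights (adjusted p = 0.169). Dhrs9, a retinol and steroid dehydrogenase, was at 0.612, 0.370, 0.652 and 0.514 CPM in flox/flox livers 1 to 4 and 12, 28.5, 28.7 and 30.1 CPM in knockout livers 1 to 4. All knockouts stood far above the controls, knockout 1 the lowest of them (log2 fold change 5.52, SE 0.35, adjusted p = 9.29e-06). Elf3, an epithelial transcription factor, was at 1.72, 16.2, 28.1 and 29.9 CPM against 0.367, 0.904, 0.0932 and 0 CPM (log2 fold change 5.75, SE 1.16, adjusted p = 0.00941). By the same voom fit its adjusted p was 0.155. Itga6, an integrin that binds laminin, was at 3.76, 18.1, 23.8 and 30.7 CPM against 0.775, 0.657, 0.652 and 0.642 CPM (log2 fold change 4.8, SE 0.59, adjusted p = 0.000673). Moxd1, Gldn, Dnah5, Tuba8, Tgm7, Tnfrsf10b and Corin complete that set beside Npas2 and Asns.

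Among the genes with the lowest p not yet named, St3gal5, which makes the ganglioside GM3, was at 248, 314, 276 and 328 CPM in flox/flox livers 1 to 4 and 74.8, 52.8, 78.2 and 71.3 CPM in knockout livers 1 to 4 (log2 fold change -2.07, SE 0.17, adjusted p = 6.24e-05). The related St6gal1 rose, at 105, 178, 231 and 171 CPM in knockouts against 44.5, 41.4, 41.4 and 62.3 CPM (log2 fold change 1.85, SE 0.23, adjusted p = 0.000478). Cdip1, a cell death-inducing protein, fell (log2 fold change -1.83, SE 0.15, adjusted p = 6.24e-05), and so did a gene listed under the clone name 1600002H07Rik, at 192, 234, 218 and 202 CPM in flox/flox livers 1 to 4 and 39.8, 29.6, 33.6 and 29 CPM in knockout livers 1 to 4 (log2 fold change -2.68, SE 0.15, adjusted p = 3.71e-06). The scaffold protein Nedd9 rose (log2 fold change 3.09, SE 0.24, adjusted p = 6.24e-05), as did Esco2, a cohesin acetyltransferase (log2 fold change 3.63, SE 0.3, adjusted p = 6.24e-05). The 15 largest falls among 1383 genes that met every condition also held Lmod2, Sema5b, Pcp4l1, Acot3, Wfdc2 and Cyp17a1.

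The knockout effect was then set against that of the RPN11 line, which has its own flox/flox livers, in 1 fit of all 16. The RPN11 knockout alone had 241 of 12108 genes higher (1.99%) and 342 lower (2.82%). That line is named here by its labels. No tested member of the proteasome list, which was written with Psmd14 in it, was called higher or lower in that line. The difference between the knockout effects passed an adjusted p under 0.05 in 1720 of 13118 genes (13.1%), and in 1401 of the 3799 genes called in the METTL3 line. Mfsd2a, Usp2 and 1600002H07Rik had the lowest p of the difference. For Usp2 the log2 fold change was -0.06 (SE 0.17) in the RPN11 line and the difference -4.84 (SE 0.28, adjusted p = 1.38e-08). For Mfsd2a the corresponding values were -0.12 (SE 0.15) and -5.45 (SE 0.33, adjusted p = 2e-08). Neither gene passed in the RPN11 line.

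Other differences lay in the clock, in sterol synthesis and in amino acid metabolism. Lpin1 went in opposite directions, with 1.15 (SE 0.19) in the RPN11 line and a difference of -3.24 (SE 0.32, adjusted p = 2.59e-05). Per1 stood at 0.31 in the RPN11 line and differed by -3.43 (adjusted p = 0.000455), and Asl at 0.08 with a difference of -2.56 (adjusted p = 0.000146). Across lists, the difference passed in 7 of 14 core clock genes, 8 of 14 clock outputs, 17 of 23 cholesterol synthesis genes, 18 of 29 of amino acid catabolism, 18 of 37 of oxidative phosphorylation and 16 of 31 proteasome genes. The difference was not fitted with plain totals. In the METTL3 line alone, plain totals took the lower calls from 34 to 16 in oxidative phosphorylation and from 18 to 4 in the proteasome list. In cholesterol synthesis the RPN11 line had 8 members lower and none higher, and the METTL3 line 8 higher and 1 lower. Fasn and Srebf1 differed between the lines, lower in the RPN11 line (-1.26 and -1.45) with differences of 1.5 (adjusted p = 0.0125) and 1.18 (adjusted p = 0.0043). Interferon-stimulated genes were higher in 23 members of the RPN11 line against 22 here, and the difference passed in 5 of 37. For Ifit2 and Rsad2 the differences were 0.24 (SE 0.28) and -0.02 (SE 0.23), neither past the threshold. Knockout 4 of the RPN11 line was kept in this fit, and without the fourth knockout of either line 1822 differences passed. The count depends on single livers, with 2663 differences without METTL3 knockout 1, 1110 without RPN11 knockout 2 and 1095 without RPN11 flox/flox liver 1.

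**Figure D5:**
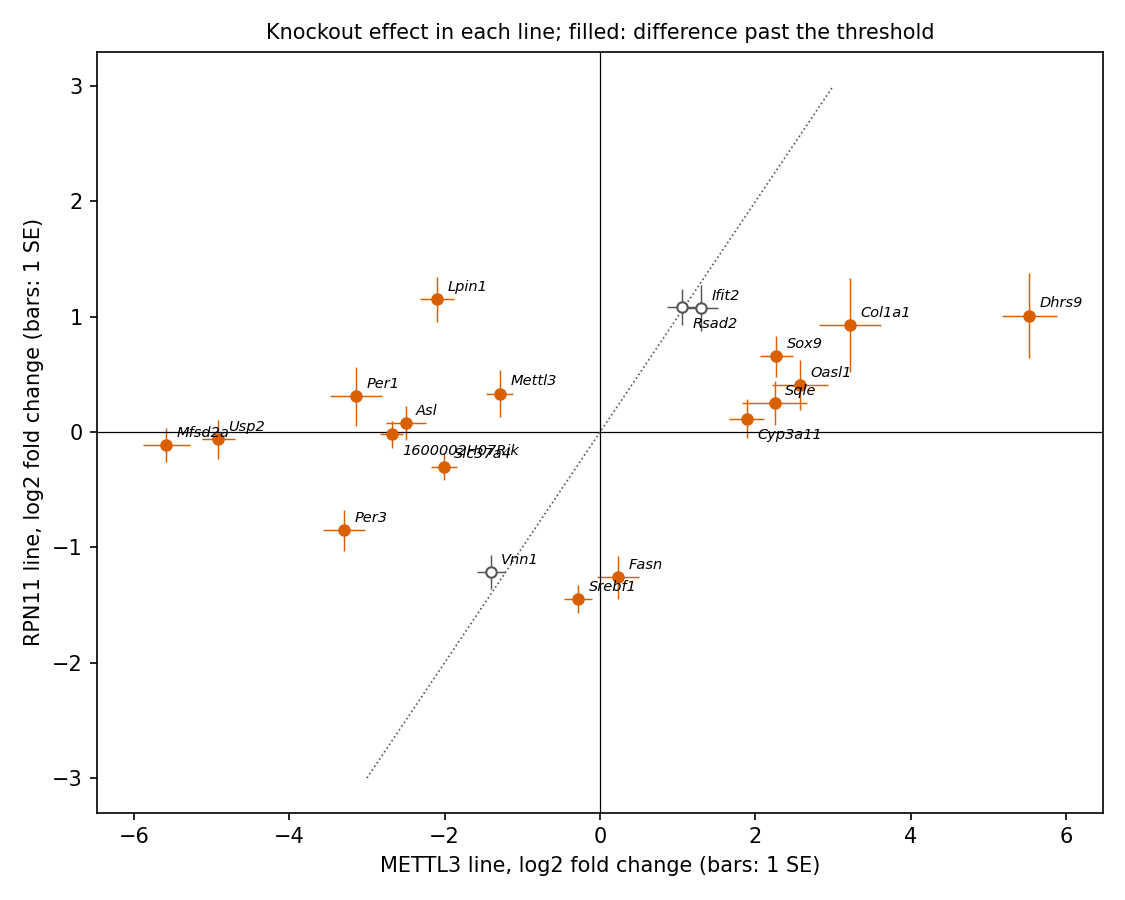
Log2 fold change of knockout against flox/flox in the METTL3 line (horizontal axis) and in the RPN11 line (vertical axis) for named genes tested in both, each line against its own controls, with bars of 1 SE. The dotted line marks equal effects. Filled points are genes whose difference between the lines passed an adjusted p under 0.05, and Usp2, Mfsd2a, Per1 and Asl lie far left near 0 on the vertical axis.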

How the data were processed

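Total RNA of whole liver was sequenced after removal of ribosomal RNA with a low-input kit, per the labels' protocols. The deposited table holds raw read counts per gene from the authors for 16973 genes and 16 livers, with no normalization. The submitters' processing notes name cutadapt 1.9.3, HISAT2 2.0.4, HTSeq 0.9.1 and the mm10 build; the sources used here give no strand setting, so reads of overlapping and antisense genes, and of near-identical copies, may be shared.

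The 8 METTL3-line livers were fitted with edgeR 4.0.16 (R 4.3.3, TMM scaling, filterByExpr, quasi-likelihood test, 6 residual degrees of freedom), and genes with a Benjamini-Hochberg adjusted p under 0.05 were called. The difference between the lines was a contrast in 1 fit of all 16 livers. CPM are counts per 1000000 of scaled library size and are not per length, so levels are not compared between genes. Lists of counting limits used 3 counts per library and 95% exact intervals, which cover counting error only. The scripts were tested on simulated data. Alternatives were RLE size factors, other filters, DESeq2 1.42.0, limma 3.58.1 voom weights, a replicate block and each liver left out. Promoter sequences are from RefSeq, build GRCm38.p6. Figures used matplotlib 3.10.9.

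The members and the gene lists were chosen with earlier results of these data known. Named genes are Mettl3, the 15 largest rises and falls that also passed without knockout 4 with the same sign, had no overlap of the groups and a mean of at least 1 CPM (no Gm, Rik, clone or pseudogene names), the 10 lowest p, up to 5 members of each list by p, and the 10 lowest p of the difference between the lines. Outside that rule, and chosen after their values were seen, are Acaca, Acta2, Afp, Alb, Apob, Arntl, Atf3, Atf4, Avpr1a, Axin2, Cdkn1a, Clock, Cps1, Cry1, Cry2, Cyp8b1, Epcam, Fasn, Glul, Gpnmb, Hlf, Hmgcs1, Hnf4a, Krt19, Krt7, Lgr5, Mettl14, Nampt, Nr1d1, Nr1d2, Pck1, Srebf1, Trem2 and Upp2. Some genes are not reported here.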

Additional observations from a re-analysis of the deposited data

Results flagged for a closer look

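In 358 groups of 4 livers, 30 held a liver whose gap to its nearest neighbour took up more of the group's range than the 95% limit of Dixon's test for 4 values, and chance flags about 1 in 20 groups. The genes in the text were not independent of each other. Knockout 4 stood apart in 8. Its total count was 15980959, and its summed markers were 9844 CPM for lipid-associated macrophages, 103 CPM for erythroid cells and platelets and 948 CPM for brain. Among single genes it stood at 19.7 CPM for Arntl, 1446 CPM for Gpnmb, 16.8 CPM for Tgfb1 and 9.88 CPM for Trem2. Knockout 1 stood apart in 10, at 132 CPM for Cdh1, 73.6 CPM for Clock, 65.3 CPM for Col3a1, 539 CPM for Crp, 12.0 CPM for Dhrs9, 8.05 CPM for Epcam, 90.5 CPM for Mgll, 2876 CPM for Pck1, 13.7 CPM for Rsad2 and 27.2 CPM for Sqle. Flox/flox livers stood apart in 12. Flox/flox liver 1 stood at 143 CPM for Acaa1a and 0.775 CPM for Itga6. Flox/flox liver 2 stood at 126 CPM for Cyp51, 707 CPM for Hnf4a and 1.77 CPM for Krt7. Flox/flox liver 3 stood at 12.8 CPM for Cdkn1a, 464 CPM for Fads2 and 14.6 CPM for Plin4. Flox/flox liver 4 stood at 2063 CPM for Glul and 62.3 CPM for St6gal1. Flox/flox liver 4 lay at -43.3 on the first principal component, and flox/flox liver 3 had 31.3 CPM of summed adipocyte markers.

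The knockout effects of the METTL3 and RPN11 lines differed by the test of the difference itself (edgeR, adjusted p under 0.05) in 7 of 9 genes whose difference was given, as METTL3 minus RPN11 on the log2 scale. The differences were -2.56 for Asl, 1.5 for Fasn, -3.24 for Lpin1, -5.45 for Mfsd2a, -3.43 for Per1, 1.18 for Srebf1 and -4.84 for Usp2.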

How the results depend on the processing

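Plain library totals, an alternative chosen after seeing the data, moved the genes higher in METTL3 knockout from 1893 to 4077 and the genes lower in METTL3 knockout from 1906 to 789, and the cause was not tested. With RLE size factors, 2 other count filters, DESeq2, voom with quality weights and 1 fit of all 16 livers, the counts ranged from 1735 to 2706 higher and 1684 to 2665 lower, and every call shared with the reported fit kept its sign. Leaving out each liver in turn gave 1383 to 2451 higher and 1341 to 2481 lower, the most without knockout 1. Leaving out knockouts 1 and 4 together, also chosen after seeing the data, gave 1973 higher and 2076 lower, and dropping the brain list gave 1892 higher. Mettl3 ranged from -1.36 to -1.23 on the log2 scale when 1 liver was left out, and stood at -0.87 with plain totals. The genes whose knockout effect differs between the lines numbered 1095 to 2663 when 1 of 16 livers was left out, with 2663 without METTL3 knockout 1, 1110 without RPN11 knockout 2 and 1095 without RPN11 flox/flox liver 1, and the cause was not tested. That number was not obtained with plain totals. Of 144 called genes in the text, none reversed under any setting, and 6 lost the threshold with plain totals (Cry1, Cry2, H2-K1, Hnrnpa2b1, Mettl5 and Psmb1). Voom lost 5 (Atf3, Cib3, Cyp2b9, Elf3 and Ly6d), no count filter 4 (Atf3, Hnrnpa2b1, Pck1 and Trem2), DESeq2 1 (Pck1), the filter of 5 CPM 1 (Hnrnpa2b1), the replicate block and the fit of 16 livers 1 each (Trem2), RLE none, and leaving out 1 liver 0 to 8.

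Same-numbered livers are not described as paired, and the correlation of their deviations was 0.0767, 0.0272, 0.0743 and 0.184 for numbers 1 to 4, so the numbers were not taken as pairs. With a replicate block, 1923 genes were higher and 1914 lower, Mettl3 stood at -1.28, and 1552 differences between the lines passed.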

Other observations

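Other gene families were counted in the METTL3 knockout and its flox/flox livers, and were chosen after their values were seen. Of 43 tested subunits of mitochondrial complex I (Nduf genes), 35 were lower and none higher, with a median log2 fold change of -0.86, and 19 were lower with plain totals. Of 71 mitochondrial ribosomal protein genes 26 were lower and 2 higher (17 and 0 without knockout 4), but with plain totals 2 were lower and 10 higher. Cytosolic ribosomal protein genes had 13 of 103 higher and 2 lower (6 and 2 without knockout 4), both below the shares among all tested genes, and 56 higher with plain totals. The counts of both ribosomal families therefore rest on the scaling. Of 14 peroxins, which build peroxisomes, 7 were lower and none higher, but with plain totals 2 were lower and 1 higher, and the median moved from -0.49 to -0.1. Sulfotransferases were lower in 4 of 7, acyl-CoA thioesterases in 7 of 11 with 2 higher, and aldehyde dehydrogenases in 10 of 17 with 2 higher.

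In the other direction, 15 of 27 collagen genes were higher and 1 lower, 11 of 26 integrins were higher and 1 lower, and 9 of 18 tubulins were higher and 1 lower. The counts are by edgeR at an adjusted p under 0.05, and the shares among the 12450 tested genes were 15.2% higher and 15.3% lower.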
